A study of Mus musculus with 12 samples.

Results

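The 10 genes described here encode tumour necrosis factor (Tnf) and proteins of the NF-kB pathway: Tnf, Traf1, Birc3, Tnfaip3, Nfkbia, Nfkbie, Nfkb1, Nfkb2, Rel and Relb. They were chosen by name, as the non-control probes of the array annotated to these genes, which gave 14 probes among 55675 probes for 34796 gene names. RNA was measured in the aorta of 12 C57BL/6J mice on day 3 of treatment, with 1 array per mouse and 4 groups of 3 mice. Day 3 is the series record's time for all groups, but each DMSO sample's title starts with Pre, a word the study also uses for the state before the challenge, so that it is not settled whether DMSO mice had received vehicle for those days or none. All mice were male, and injections were intraperitoneal and daily. Per the labels, DMSO mice received dimethylsulfoxide, the vehicle, and rapamycin mice received 2 mg/kg/day of rapamycin, an inhibitor of the kinase mTOR, in that vehicle. BA+DMSO mice received beta-aminopropionitrile (BAPN), which blocks collagen crosslinking, at 150 mg/kg/day and angiotensin II (AngII) at 1 µg/kg/min with vehicle, and BA+rapamycin mice received both with rapamycin. These agents, together called the challenge, induce dissection of the aorta in this model and were infused by implanted minipumps, and the sources used here do not state whether unchallenged mice had pumps.

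As background, TNF is a cytokine of activated macrophages and other cells that acts on receptors of the TNF receptor superfamily. Adaptors at the receptor activate the IKK complex, which marks the inhibitory IkB proteins for degradation and so frees NF-kB dimers to enter the nucleus. In the canonical arm the dimers are chiefly of p50, from Nfkb1, with RelA or c-Rel, and in the noncanonical arm they are of p52, from Nfkb2, with RelB. Many genes of the pathway, including those of IkB proteins, A20 and TRAF1, are themselves known targets of NF-kB in many cell types, and in the vessel wall the pathway is known for induction of chemokines, cytokines and adhesion molecules.

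Promoters are shown because the members belong to the NF-kB pathway and the kB consensus, a 10-base motif, can be looked for in them. Matches are given as a description of the sequence. The RefSeq promoter windows (GRCm38.p6, 250 bases before to 50 after a start) covered 8 of the 10 genes, the exceptions being Nfkb1 and Relb. The consensus was searched on both strands and was found in 7 of the 11 windows of these genes, beside 2779 of all 32851 windows (8.46%). By gene it was found in 5 of the 8, beside 2581 of all 27025 genes (9.55%). The stretches below run 5′ to 3′ on the gene's strand, and capitals mark the matches. They lie at chr10:19015411-19015550 (minus strand) for Tnfaip3, chr19:46304677-46304736 (plus) for Nfkb2, chr11:23771036-23771095 (minus) for Rel, chr12:55492652-55492711 (minus) for Nfkbia and chr17:45555559-45555618 (plus) for Nfkbie.
Tnfaip3: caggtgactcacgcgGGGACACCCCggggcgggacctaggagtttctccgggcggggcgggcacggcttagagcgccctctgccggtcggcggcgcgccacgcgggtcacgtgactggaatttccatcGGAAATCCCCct
Nfkb2: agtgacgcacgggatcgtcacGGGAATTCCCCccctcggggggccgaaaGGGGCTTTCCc
Rel: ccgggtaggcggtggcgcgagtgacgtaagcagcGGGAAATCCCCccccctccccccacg
Nfkbia: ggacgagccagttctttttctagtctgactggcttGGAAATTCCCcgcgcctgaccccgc
Nfkbie: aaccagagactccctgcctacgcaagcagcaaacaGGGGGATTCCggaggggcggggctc
The Tnfaip3 matches begin 125 and 12 bases before the first of its 2 starts, and the window of the other start held 0 matches. In Nfkb2, an overlapping pair of matches begins 39 and 38 bases before the first of its 3 starts in the table, and a further match begins 11 bases before it, while matches near the other starts are not shown. The matches of Rel, an overlapping pair, begin 92 and 91 bases before the start, that of Nfkbia 29 bases and that of Nfkbie 106 bases before it. No match was found in the windows of Tnf, Birc3 and Traf1, which says only that these letters are not in those windows.

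Levels are given on the log2 scale as the difference of a probe's processed signal from the 75th percentile of its array, so that 1 unit is a 2-fold difference, and levels of different probes are not comparable. A gene was followed by its brightest tested probe. Of the 10 members, 8 were tested, and each of these was well above background on all 12 arrays with its brightest probe, so that the filter on dim probes did not select them. Differences were tested with limma over 27801 probes (20026 genes), with Benjamini-Hochberg adjustment, and a gene was called at an adjusted p under 0.05. The 75th percentile itself, a measure of array brightness, was 221 to 280 intensity units in DMSO and 257 to 337 in rapamycin. It was 78.1 to 246 in BA+DMSO, and the BA+rapamycin arrays had 74.6 to 109. Arrays of 1 group correlated across probes at 0.987 to 0.990 in DMSO, 0.990 to 0.993 in rapamycin, 0.912 to 0.961 in BA+DMSO, and 0.974 to 0.982 for BA+rapamycin, so that BA+DMSO arrays were least alike. The parts of array brightness and of the mice in this were not tested. Slide 1 held the 3 DMSO arrays and 1 rapamycin array, and slide 2 held the other 8. All 8 smooth muscle markers tested, such as Acta2 and Myh11, were well above background on all 12 arrays.

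**Figure D1:**
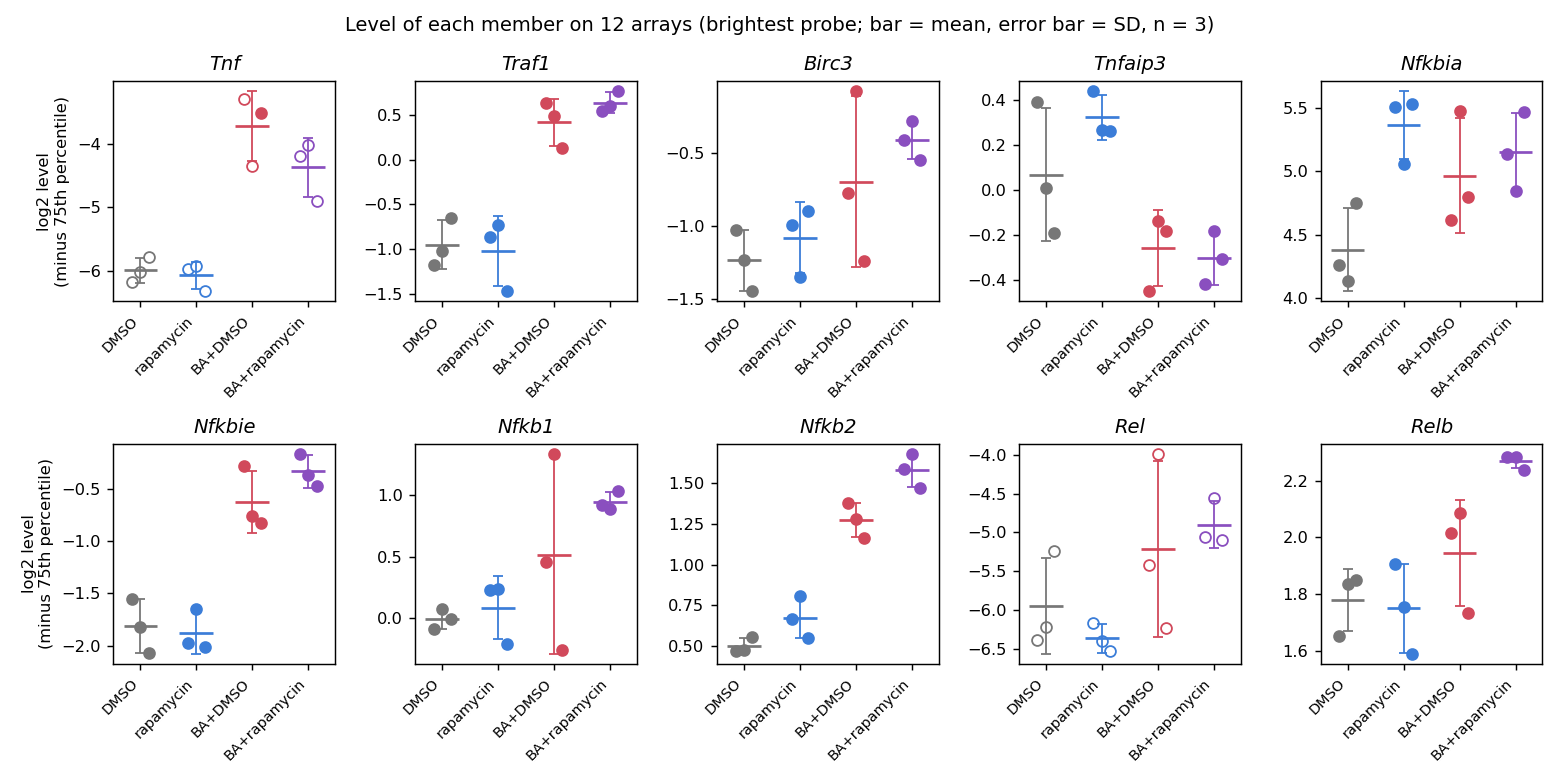
Level of the 10 members on each array (log2, minus the array's 75th percentile), with a column of 3 points per group, a bar at the group mean and an error bar of 1 SD; open points were not well above background. Traf1, Nfkbie and Nfkb2 separate both challenged groups from both unchallenged groups, while Nfkb1 and Birc3 spread widely in BA+DMSO.

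The challenge raised 3 of the 8 tested members, Traf1, Nfkbie and Nfkb2, and lowered none (BA+DMSO against DMSO, limma). Over all genes tested, 21.4% were called in this comparison, 10.4% higher and 11% lower. The members' differences had a median of 0.56, beside -0.02 for all genes, and 7 of 8 were positive. Because bulk aorta was measured, a change in the number of cells of a type and a change in RNA per cell cannot be told apart. DMSO and BA+DMSO arrays lay on different slides, so that slide and challenge cannot be told apart in this comparison. Most sample titles also carry a date, and DMSO and BA+DMSO titles share no date.

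Tnf, the ligand (NM_013693, probe at mm9 chr17:35336795-35336854), was well above background on 1 array, BA+DMSO replicate 3, and was not tested. Its levels were -6.18, -6.02 and -5.78 in DMSO, -5.97, -5.93 and -6.32 in rapamycin, -3.30, -4.35 and -3.52 in BA+DMSO, and -4.19, -4.02 and -4.90 in BA+rapamycin. Before scaling, the processed intensity was 3.86 to 4.12 in DMSO, 4.11 to 4.45 in rapamycin, 13.4, 3.83 and 21.5 in BA+DMSO, and 5.99, 4.59 and 3.62 for BA+rapamycin. BA+DMSO replicate 2 and BA+rapamycin replicate 3 were thus no brighter than the unchallenged arrays, and their higher levels come from the lower 75th percentile that was subtracted. No order of the groups is read and no fold is given, since 11 of the 12 values were not well above background.

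Traf1 encodes an adaptor that binds TNF receptors and TRAF2 (NM_009421, chr2:34798882-34798941). Its levels were -1.18, -1.02 and -0.65 in DMSO, -0.86, -0.73 and -1.46 in rapamycin, 0.63, 0.49 and 0.13 in BA+DMSO, and 0.54, 0.60 and 0.76 in BA+rapamycin. All 6 challenged mice were above all 6 unchallenged mice. Traf1 rose by 1.36 ± 0.23 (SE) with the challenge, a 2.57-fold rise (limma, adjusted p = 0.00319), and by 1.66 ± 0.23 with the challenge under rapamycin (BA+rapamycin against rapamycin, adjusted p = 0.000782).

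Birc3 encodes cIAP2, a ubiquitin ligase at the TNF receptor (NM_007464, chr9:7854409-7854468). Levels were -1.03, -1.23 and -1.45 in DMSO, -0.99, -1.35 and -0.89 in rapamycin, -0.77, -0.07 and -1.24 in BA+DMSO, and -0.41, -0.28 and -0.55 in BA+rapamycin. The BA+DMSO mice overlapped DMSO and spread over a wider range, whereas the BA+rapamycin mice lay above all unchallenged mice. The challenge differences were 0.54 ± 0.27 (limma, adjusted p = 0.177) and, under rapamycin, 0.67 ± 0.27 (adjusted p = 0.0663). Without BA+DMSO replicate 3, the lowest of its group, the first difference was 0.81 and was called (limma, adjusted p = 0.0233), while 10574 probes were called in place of 5697, and without replicate 2, the highest, it was 0.23 (adjusted p = 0.435). The difference under rapamycin was called in 7 of 25 alternatives, over which the adjusted p ran from 0.00522 to 0.196 (limma).

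Tnfaip3 encodes A20, an enzyme that edits ubiquitin chains and restrains NF-kB signalling (NM_009397, chr10:18720776-18720835). It was 0.39, 0.01 and -0.19 in DMSO, 0.44, 0.27 and 0.26 in rapamycin, -0.45, -0.14 and -0.18 in BA+DMSO, and -0.42, -0.18 and -0.31 in BA+rapamycin. By the brightest probes it was the only tested member with a negative challenge difference, and DMSO and BA+DMSO overlapped, while all BA+rapamycin mice were below all rapamycin mice. The difference was -0.33 ± 0.18 for the challenge (limma, adjusted p = 0.228; -0.16 without DMSO replicate 1), and Tnfaip3 fell by 0.63 ± 0.18 with the challenge under rapamycin (adjusted p = 0.0202). This fall was not called without rapamycin replicate 1 or 3 or without BA+rapamycin replicate 1 or 3 (limma, adjusted p of 0.0535 to 0.0713), nor with slide as a fixed block (adjusted p = 0.0713), nor on slide 2 alone, where the difference was -0.57 (adjusted p = 0.117), nor with scaling by the probes detected on all arrays, where it was -0.44 (adjusted p = 0.0789). With the number in the sample titles as a replicate block it was -0.54 and also not called (limma, adjusted p = 0.0512).

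Nfkbia encodes IkB alpha, the inhibitor that holds NF-kB dimers in the cytoplasm (NM_010907, chr12:56590945-56591440, across a splice junction). Its levels were 4.26, 4.13 and 4.75 in DMSO, 5.50, 5.05 and 5.53 in rapamycin, 4.62, 5.48 and 4.80 in BA+DMSO, and 5.13, 4.84 and 5.47 in BA+rapamycin. All rapamycin mice were above all DMSO mice, and 1 BA+DMSO mouse was below the highest DMSO mouse. The challenge difference was 0.58 ± 0.27 (limma, adjusted p = 0.154), and under rapamycin it was -0.22 ± 0.27 (adjusted p = 0.54). The first was 0.33 without BA+DMSO replicate 2, and the second ran from -0.38 to -0.06 with 1 BA+rapamycin array left out (replicates 3 and 2), with no call.

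Nfkbie encodes IkB epsilon, an inhibitor of p50, RelA and c-Rel dimers (NM_008690, chr17:45700000-45700059). It stood at -1.55, -1.82 and -2.07 in DMSO, -1.98, -1.64 and -2.01 in rapamycin, -0.28, -0.76 and -0.83 in BA+DMSO, and -0.16, -0.37 and -0.47 in BA+rapamycin. Every challenged mouse was above every unchallenged mouse. Nfkbie rose by 1.19 ± 0.21 with the challenge, 2.28-fold (limma, adjusted p = 0.00366), and by 1.54 ± 0.21 under rapamycin, 2.92-fold (adjusted p = 0.000639).

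Nfkb1 encodes p105, the precursor of p50 (NM_008689, brightest probe at chr3:135254550-135254609). Levels of this probe were -0.09, 0.08 and -0.01 in DMSO, 0.23, 0.24 and -0.21 in rapamycin, 0.46, 1.34 and -0.26 in BA+DMSO, and 0.92, 0.89 and 1.03 in BA+rapamycin. BA+DMSO held both the lowest and the highest mouse, while BA+rapamycin was tight and above both unchallenged groups. The challenge difference was 0.52 ± 0.32 (limma, adjusted p = 0.276), and under rapamycin it was 0.86 ± 0.32 (adjusted p = 0.0511). Without BA+DMSO replicate 3 the first was 0.90 and called (limma, adjusted p = 0.0181), and without replicate 2 it was 0.10 (adjusted p = 0.761).

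A further Nfkb1 probe (chr3:135247621-135247680) was not measured above background on 3 challenged arrays. It read -1.96, -1.74 and -2.16 in DMSO, -1.81, -1.94 and -1.71 in rapamycin, -2.11, -4.32 and -2.48 in BA+DMSO, and -2.72, -2.42 and -2.43 in BA+rapamycin, and was well above background on 9 of 12 arrays, not on BA+DMSO replicate 2 or on 2 of the BA+rapamycin arrays. No difference is given for this probe, which was not called in these comparisons. The brightest probe, not called for the challenge under rapamycin, was called there in 11 of 25 alternatives, among them quantile normalization (limma, adjusted p = 0.0468), the deposited matrix (adjusted p = 0.0469) and normexp (adjusted p = 0.0476), with a range over alternatives of 0.00058 to 0.164. As the median over both probes, the Nfkb1 difference in that comparison was 0.082, against 0.86 by the brightest probe.

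Nfkb2 encodes p100, the precursor of p52 (NM_019408, chr19:46386146-46386285, across a splice junction). It was 0.47, 0.48 and 0.56 in DMSO, 0.67, 0.81 and 0.55 in rapamycin, 1.38, 1.28 and 1.16 in BA+DMSO, and 1.58, 1.68 and 1.47 in BA+rapamycin. The challenged mice were all above the unchallenged mice, and the BA+rapamycin mice were all above the BA+DMSO mice. Nfkb2 rose by 0.77 ± 0.15 with the challenge, 1.71-fold (limma, adjusted p = 0.00533). With the challenge under rapamycin it rose by 0.90 ± 0.15, 1.87-fold (limma, adjusted p = 0.00154). Before scaling, its processed intensity was 326 to 388 in DMSO and 190 to 552 in BA+DMSO. It was 409 to 494 in rapamycin and 239 to 328 in BA+rapamycin, so that the rise under rapamycin is relative to array brightness. With the normexp background correction the differences were 0.55 and 0.54, both called (limma, adjusted p = 0.00906 and 0.00449).

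Relb encodes the partner of p52 in the noncanonical arm (NM_009046, brightest probe at chr7:20191722-20191781). It read 1.65, 1.84 and 1.85 in DMSO, 1.91, 1.76 and 1.59 in rapamycin, 2.01, 2.09 and 1.74 in BA+DMSO, and 2.28, 2.28 and 2.24 in BA+rapamycin. DMSO, rapamycin and BA+DMSO overlapped, and BA+rapamycin was above all of them. The challenge difference was 0.16 ± 0.16 (limma, adjusted p = 0.489, with 0.095 without BA+DMSO replicate 2 and 0.27 without replicate 3), and Relb rose by 0.52 ± 0.16 with the challenge under rapamycin (adjusted p = 0.0245). The latter was not called without rapamycin replicate 2 or 3 or without any 1 of the BA+rapamycin arrays (limma, adjusted p of 0.0583 to 0.102). On slide 2 alone it was 0.59 and not called (limma, adjusted p = 0.106), and it was 0.16 (adjusted p = 0.274) with the normexp background correction. Of the 2 further Relb probes, that at chr7:20191773-20191832 rose by 0.46 ± 0.16 (adjusted p = 0.044), and that at chr7:20203058-20203117 had a difference of 0.61 ± 0.27 (adjusted p = 0.0927).

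Rel, the gene of c-Rel (NM_009044, probe annotated at chr11:23641729-23641743), was well above background on 0 of 12 arrays and was not tested. Its levels lay between -6.53 and -6.16 in rapamycin, -6.38 and -5.24 in DMSO, -6.23 and -3.99 in BA+DMSO, and -5.10 and -4.55 in BA+rapamycin. No fold is given, since all groups were in the range of background.

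**Figure D2:**
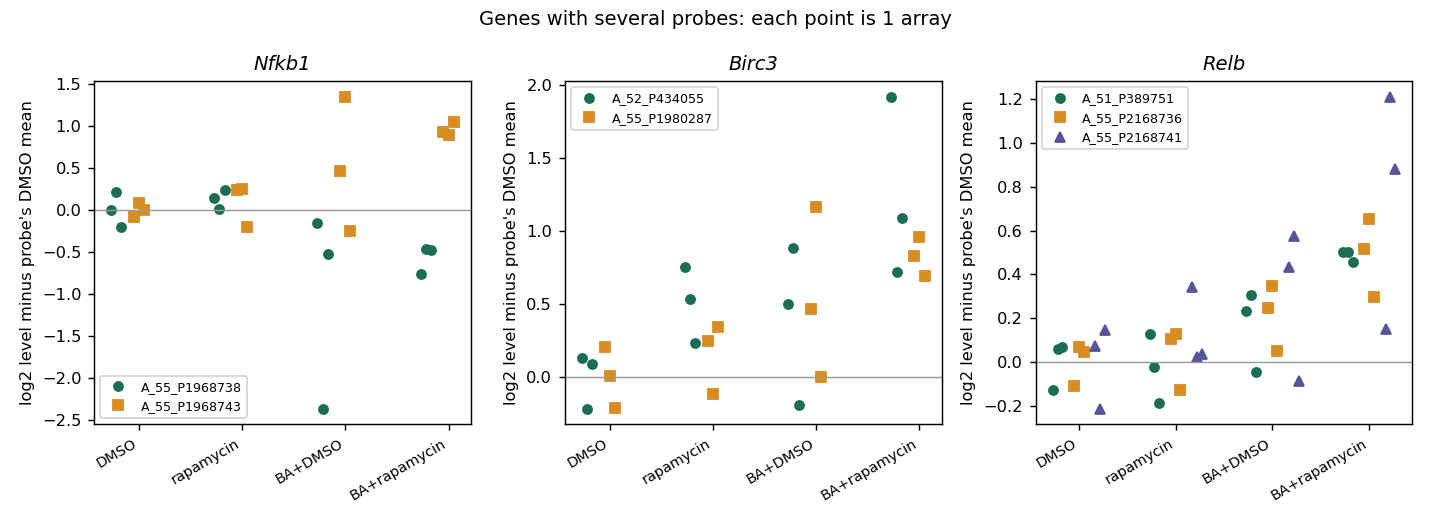
Levels of every probe of Nfkb1, Birc3 and Relb on each array, as the log2 difference from the mean of that probe in DMSO, by group; each point is 1 array and each symbol 1 probe. The brightest Nfkb1 probe reaches a level of 1.34 in BA+DMSO, while the other, not well above background on 3 challenged arrays, is below its DMSO mean on all 6 challenged arrays. The Birc3 and Relb probes are all above their DMSO means on the BA+rapamycin arrays.

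With the challenge under rapamycin, 4 members rose (Traf1, Nfkbie, Nfkb2 and Relb) and 1, Tnfaip3, fell. Over all genes 42.7% were called in this comparison, 19.8% higher and 22.9% lower. The 8 differences had a median of 0.77 against -0.07 over all genes, and the groups did not overlap for 7 of 8, as for 67.8% of all genes. This comparison shares no array with the challenge under vehicle. Nfkb2, Nfkbie and Traf1, the members called in both, kept calls on slide 2 alone, with adjusted p of 0.043, 0.020 and 0.017 (limma, 2 rapamycin against 3 BA+rapamycin arrays).

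Slide enters the challenge differences, since only the rapamycin group lay on both slides. With slide as a fixed block the challenge differences were 1.60 for Traf1 (limma, adjusted p = 0.236), 1.04 for Nfkbie (adjusted p = 0.387) and 0.76 for Nfkb2 (adjusted p = 0.383), and no member was called. In the same fit, the challenge under rapamycin gave 1.73 for Traf1 and 0.90 for Nfkb2, and all 3 were called. These differences compare only slide 2 arrays, so that they are no second check beside slide 2 alone. The slide term of this fit comes from the rapamycin group alone, with 1 array on slide 1. The blocked differences for the challenge with vehicle therefore hang on that array. The directions of these 3 genes were as without the block. Over all probes, 15 were called for the challenge with this block, beside 5697 without it, so that the calls of the wider lists given next also rest on the comparison across slides.

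**Figure D3:**
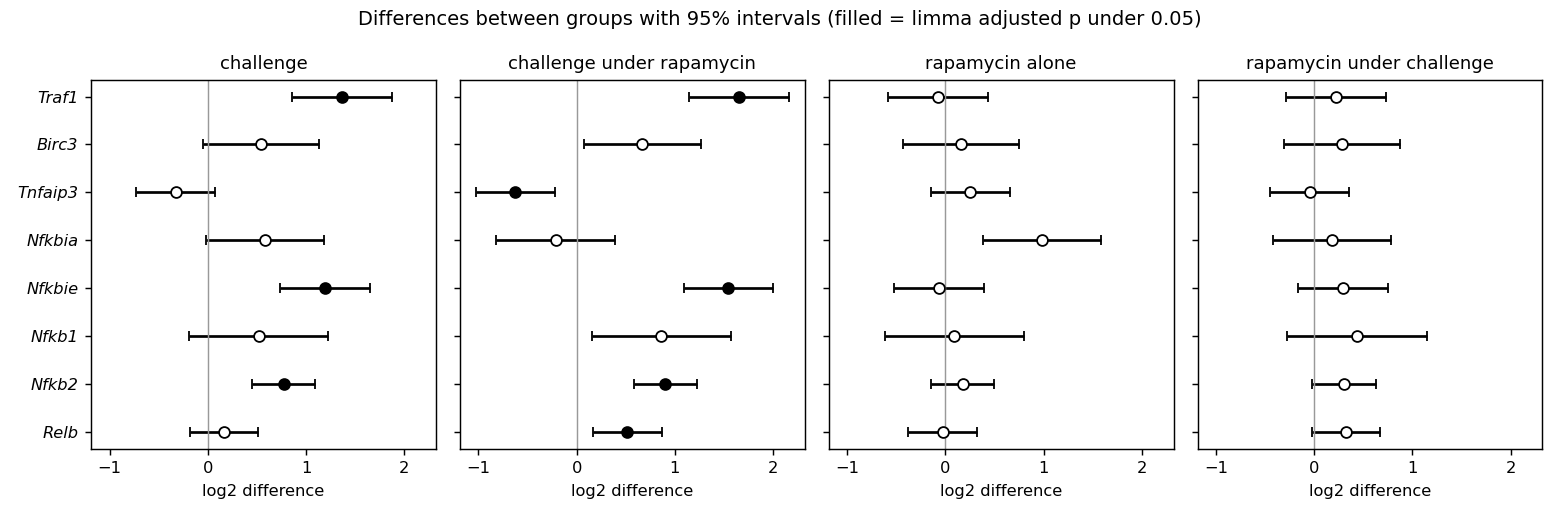
Log2 differences of the 8 tested members in 4 comparisons, with 95% intervals from the limma model; filled points were called at an adjusted p under 0.05. Traf1, Nfkbie and Nfkb2 are filled for the challenge with and without rapamycin, and no point is filled for rapamycin alone or under challenge.

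Rapamycin under challenge (BA+rapamycin against BA+DMSO, both on slide 2) changed 0 of 8 tested members in limma, and 0.305% of all genes were called. At an unadjusted p under 0.05 there were 0 of the 8 by their brightest probes, beside 20.5% of all genes. Differences were positive for 7 of 8, with a median of 0.29 beside -0.03 over all genes. Nfkb2 differed by 0.30 (95% interval -0.02 to 0.63, adjusted p = 0.264) and Relb by 0.32 (-0.03 to 0.67, adjusted p = 0.27), and these were the 2 members whose groups did not overlap, beside 14.9% of all genes. For Traf1 the difference was 0.22 (-0.29 to 0.73) and for Nfkbie 0.29 (-0.16 to 0.75). Tnfaip3 was at -0.05 (-0.45 to 0.36) and Nfkbia at 0.18 (-0.42 to 0.79), and the intervals of all 8 brightest probes lay on both sides of 0. With 1 BA+DMSO array left out, Nfkbia ran from 0.012 (without replicate 1) to 0.44 (without replicate 2), Traf1 from 0.077 (without replicate 3) to 0.33 (without replicate 1) and Nfkbie from 0.19 (without replicate 3) to 0.46 (without replicate 1), and none of these was called. The brightest probes of Nfkb1 and Birc3 differed by 0.44 (-0.27 to 1.15) and 0.28 (-0.31 to 0.88), and were called, at 0.85 (limma, adjusted p = 0.0149) and 0.59 (adjusted p = 0.0432), when BA+DMSO replicate 2 was left out, where 11092 of 27801 probes were called in place of 78. Without BA+DMSO replicate 3 they were 0.050 and 0.011, and neither was called. The further Birc3 probe differed by 0.84 and had an unadjusted p under 0.05 (limma, adjusted p = 0.212).

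Rapamycin alone (against DMSO) changed 0 of 8 tested members, beside 0.00499% of all genes, with 1 member at an unadjusted p under 0.05, beside 4.43% of all genes. That member was Nfkbia, which differed by 0.98 ± 0.27 (95% interval 0.38 to 1.58), a 1.98-fold difference with no overlap of the groups (22.4% of all genes had none), and was not called (limma, adjusted p = 0.72). On slide 1, which holds 1 rapamycin array, the difference was 1.12. The other 7 members differed by -0.07 to 0.25, from Traf1 to Tnfaip3. The interaction, rapamycin's difference under challenge minus that alone, called 0 of 8 members and 0% of all genes in limma, while 1204 of 20026 genes (6.01%) had an unadjusted p under 0.05 and 0 of the 8 members did. It was largest in size for Nfkbia, at -0.80 ± 0.39 (limma, adjusted p = 0.737). Without BA+DMSO replicate 2 it was larger for Nfkb1, at 0.76, than for Nfkbia, at -0.54.

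**Figure D4:**
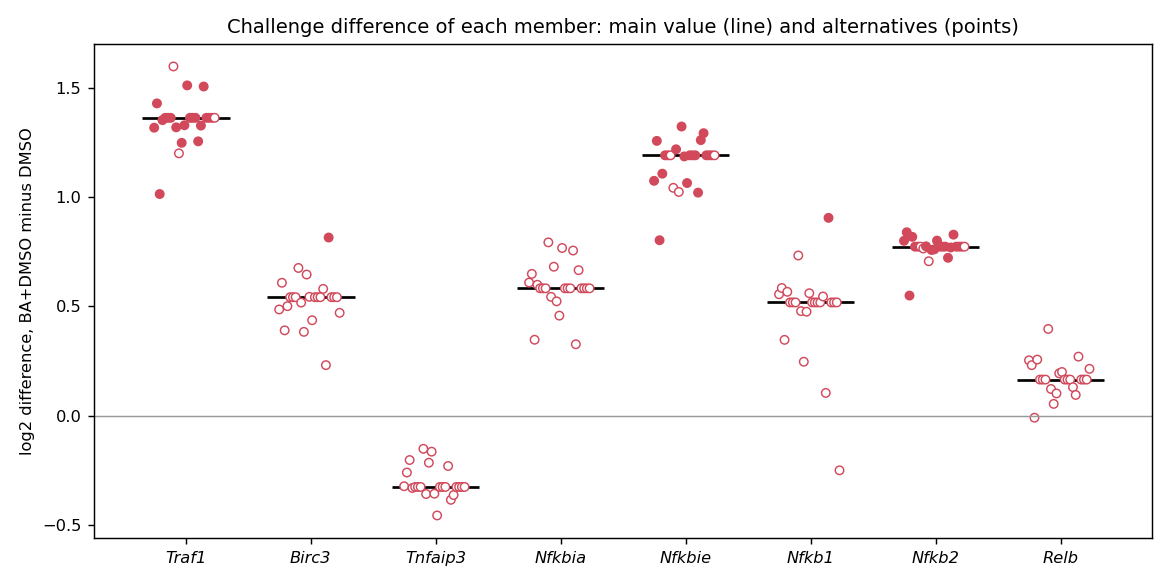
Challenge difference (BA+DMSO minus DMSO, log2) of each tested member, with the reported value as a line and each alternative processing or left-out array as a point, filled where called at an adjusted p under 0.05. Traf1, Nfkbie and Nfkb2 stay above 0 in each alternative, and 1 point of Nfkb1, the median over its probes, is at -0.25.

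The wider pathway was described by 5 gene lists. All gene lists used here were chosen with earlier results of these data known, so that their counts describe the data and test nothing. Of 17 TNF superfamily ligands, 9 were tested, and the challenge raised 2 and lowered 1, beside 10.4% of all genes higher and 11% lower. Of these 9, 3 were well above background on all 12 arrays, and 1 of those was called higher. Tnfsf18, the ligand of GITR, counted among the 2, was well above background on 0 DMSO arrays, 2 of 3 BA+DMSO arrays, at levels of -3.52 to -1.26 in that group, and all 3 BA+rapamycin arrays. It passed the filter only through BA+rapamycin, where it is highest, so that its call is no support and no fold is given. Tnfsf15, also known as TL1A, rose by 1.39 ± 0.43 (adjusted p = 0.0423), a call lost in 15 of 22 alternatives, most of them with 1 array left out. Eda, ectodysplasin A, was called lower (limma, adjusted p = 0.00762), with levels of -1.01 to -0.83 in DMSO and -2.17 to -1.62 in BA+DMSO. In BA+DMSO 2 of 3 arrays were well above background, so that the main difference is not given. The call was lost in 4 of 21 alternatives, and under normexp the difference was -0.19.

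Of 28 TNF receptors, 19 were tested, and 7 rose and 1 fell with the challenge, beside 10.4% of all genes higher and 11% lower. Tnfrsf11b, osteoprotegerin, a decoy receptor, rose by 2.50 ± 0.47 (limma, adjusted p = 0.00524). Tnfrsf23, a decoy receptor of the TRAIL group, rose by 2.22 ± 0.42 (adjusted p = 0.00557). Tnfrsf1b, TNF receptor 2, was called higher (limma, adjusted p = 0.00562), with levels of -3.32 to -2.29 in DMSO and -1.55 to -0.12 in BA+DMSO. It was well above background on 2 of 3 DMSO arrays, so that the difference is not given. Tnfrsf13c, the BAFF receptor, is the 1 counted as lower. It was not well above background on any BA+DMSO array and passed the filter only through DMSO, where it is highest, so that its call is no support and no fold is given. Its difference took the opposite sign, 0.32, under normexp background correction, and the call was lost in a further 9 of 21 alternatives. The receptors' median was 0.23, and on the 14 receptors measured on all arrays 5 were higher and 0 lower.

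Of 31 adaptors, ubiquitin enzymes and death effectors tested, 2 rose and 3 fell, beside 21.4% called over all genes. Map3k14, the kinase NIK of the noncanonical arm, rose by 0.78 ± 0.21 (limma, adjusted p = 0.0254), and Traf4, a TRAF family member, rose by 0.73 ± 0.17 (adjusted p = 0.0129). Traf5, an adaptor, fell by 1.19 ± 0.20 (adjusted p = 0.00331), Cyld, a deubiquitinase that restrains NF-kB signalling, fell by 0.72 ± 0.21 (adjusted p = 0.0313), and Birc2, which encodes cIAP1, fell by 0.68 ± 0.21 (adjusted p = 0.0443). The list's median was -0.13. The call of Birc2 was lost in 15 of 22 alternatives, those of Cyld and Map3k14 in 8 each and that of Traf4 in 6.

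Among 21 genes of the IKK complex, Rela and other IkB proteins, 3 rose and 2 fell, beside 21.4% of all genes, and the median was 0.01. Nfkbid and Bcl3, both nuclear IkB family members, rose by 1.87 ± 0.26 (limma, adjusted p = 0.00124) and by 1.78 ± 0.39 (adjusted p = 0.0107). Malt1, a paracaspase that acts upstream of IKK, fell by 1.41 ± 0.26 (adjusted p = 0.00459), and Chuk, the kinase IKK alpha, fell by 0.50 ± 0.16 (adjusted p = 0.0439), a call lost in 17 of 22 alternatives.

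The target gene list, of cytokines, chemokines, adhesion molecules and acute phase genes, had 16 of 26 tested genes higher and 0 lower, with a median of 1.37. Over all genes, 10.4% were called higher and 11% lower. Of the 20 measured on all arrays, 11 were higher and 0 lower, with a median of 0.77. The 16 also hold called genes not measured on all arrays, which the 11 leave out. Ccl7 and Ccl2, chemokines for monocytes, rose by 5.25 ± 0.71 (limma, adjusted p = 0.00107) and by 5.17 ± 0.72 (adjusted p = 0.00118). Il6, a cytokine, counted among the 16, was well above background on 0 DMSO and 0 rapamycin arrays, on 2 of 3 BA+DMSO arrays, with levels of -3.83 to 2.84 in that group, and on all 3 BA+rapamycin arrays, at 1.91 to 3.11. It passed the filter only through BA+rapamycin, where it is highest, so that its calls are no support and no fold is given.

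Immediate early genes, which respond within minutes to many stimuli, went mostly the other way. The challenge lowered 11 of 21 tested and raised 1, beside 11% of all genes lower and 10.4% higher, with a median of -0.75. Of the 16 measured on all arrays, 9 were lower and 1 higher, with a median of -0.84. Atf3 fell by 5.10 ± 0.50 (limma, adjusted p = 0.00025) and Nr4a1 fell by 2.75 ± 0.37 (adjusted p = 0.00109), while Maff rose by 0.95 ± 0.30 (adjusted p = 0.0462), a call lost in 15 of 22 alternatives. Fos was called lower (adjusted p = 0.00451), with levels of 1.09 to 2.85 in DMSO, and of -2.62 to -0.23 in BA+DMSO, where 1 array was not measured above background and the difference is not given. Levels of Atf3 and Nr4a1 were highest in DMSO, at 4.41 to 4.60 and 5.86 to 6.15, and DMSO arrays and BA+DMSO arrays lay on different slides.

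**Figure D5:**
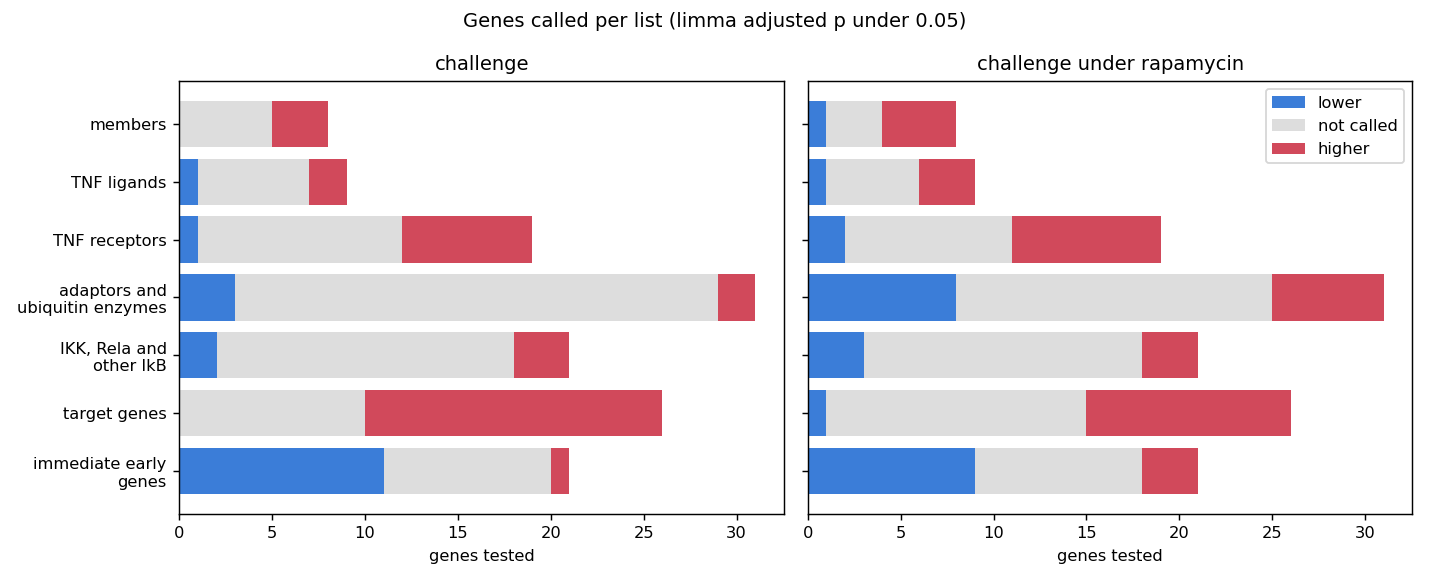
Number of tested genes called higher (red), called lower (blue) or not called (grey) in each list, for the challenge with vehicle and the challenge with rapamycin; the x axis counts genes. Target genes are mostly red (16 of 26 with vehicle), and immediate early genes mostly blue (11 of 21).

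In the challenge under rapamycin the lists gave 3 higher and 1 lower of 9 ligands, 8 and 2 of 19 receptors, 6 and 8 of 31 adaptors, 3 and 3 of 21 IKK and IkB genes, 11 and 1 of 26 targets, and 3 and 9 of 21 immediate early genes. These counts stand beside 19.8% of all genes higher and 22.9% lower. Tnfsf18 and Il6, counted among them, passed the filter only through BA+rapamycin, where they are highest, so that their calls are no support. On genes measured on all arrays the counts were 1 and 0 of 3 ligands, 6 and 1 of 14 receptors and 6 and 8 of 29 adaptors. They were 2 and 2 of 18 IKK and IkB genes, 8 and 1 of 20 targets, and 2 and 7 of 16 immediate early genes. In the comparisons of rapamycin, alone and under challenge, and in the interaction, 0 genes of each of these lists were called.

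Markers of immune cells moved with the challenge beside these genes. The marker counts here stand beside 10.4% of all genes called higher and 11% called lower. Of 11 macrophage markers, 10 rose with the challenge (median 2.23), and their summed level, on a linear scale relative to the 75th percentile, was 117 to 146 in DMSO, 133 to 155 in rapamycin, 225 to 514 in BA+DMSO, and 420 to 543 for BA+rapamycin. Such sums weigh the brightest probes most, and are compared only between arrays. Of 6 tested neutrophil markers 2 rose, with sums of 207 to 258 in DMSO, 203 to 243 in rapamycin, 156 to 602 in BA+DMSO, and 504 to 658 for BA+rapamycin, and Cxcr2 and Ngp were well above background on 0 of 12 arrays. Among T cell markers 3 of 6 rose, with Cd8a on 0 of 12 arrays, and 0 of 3 B cell markers were called. Endothelial markers rose for 3 of 8, fibroblast markers for 2 of 7, adipocyte markers for 1 of 6 and erythroid markers for 3 of 3 (sums of 18.1 to 84.1 in DMSO, 80.4 to 187 in rapamycin, 114 to 234 in BA+DMSO, and 309 to 350 for BA+rapamycin), and striated muscle markers fell for 1 of 5. The adipocyte marker called, Ucp1, was well above background on 0 DMSO arrays and all 3 BA+DMSO arrays. It passed the filter only through BA+DMSO, so that its call is no support. Of the markers measured on all arrays, 0 of 5 adipocyte and 2 of 3 T cell markers rose, and 0 of 3 striated muscle markers fell. Smooth muscle markers fell for 1 of 8, with sums of 3722 to 4026 in DMSO, 3366 to 4001 in rapamycin, 3241 to 6486 in BA+DMSO, and 4444 to 5651 for BA+rapamycin. Fibroblast sums were 1064 to 1397 in DMSO, 1248 to 1439 in rapamycin, 1377 to 2307 in BA+DMSO, and 2255 to 2567 for BA+rapamycin. The part of these cell types in the members' differences was not tested.

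The gene whose level over the 12 arrays was most like that of a member, by Pearson's r among 12842 genes outside these lists, was Myh9 for Nfkb2 (0.995), Fyb for Nfkbie (0.990), Rell1 for Traf1 (0.989), Mkl1 for Nfkb1 (0.983), Nod1 for Relb (0.969), Prm2 for Birc3 (0.953), Zfp174 for Tnfaip3 (0.907) and Cyp2d11 for Nfkbia (0.860). These are descriptions of 12 arrays that share slide, scaling and group structure.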

How the data were processed

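RNA from mouse aorta was labelled with Cy3 by the authors and hybridised to 1-colour Agilent mouse arrays. Per the file headers, the deposited scanner files hold background-subtracted, detrended processed intensity (Feature Extraction 10.7.1.1; the submitters' processing notes name 9.5.1.1), with probes on mm9. The deposited matrix holds linear intensity that matched a quantile normalization of these values (r of at least 0.9999). Groups followed the treatment labels, the DMSO titles begin with Pre, and replicates are numbered in order of deposition.

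Intensities were put on the log2 scale and each array's 75th percentile was subtracted. A probe was taken as detected on an array when a share of 0.5 or more of its spots stood well above background, and it was tested when detected on every array in 1 group or more. A mean per group was fitted over 12 arrays with limma 3.58.1 in R 4.3.3 (package data.table, version 1.17.8; prior df 3.02), two-sided, and p-values were adjusted by Benjamini-Hochberg over all tested probes. The number of arrays limits the precision. Beside the members, the called list genes with the 3 largest differences per direction of the challenge were named. A gene that met this rule is not reported here. The members and lists were chosen with earlier results of these data known. The fit was tested on simulated data, and alternatives in scaling, background, filter, probe, slide and samples were run.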

Additional observations from a re-analysis of the deposited data

How the results depend on the processing

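The challenge called 3 members, and 1 with only the arrays compared, 0 with slide as a fixed block, 0 with array weights (whose fit did not converge) and 0 under the study's rule (unadjusted p under 0.01 with a fold over 4 or under 0.25). Leaving out 1 array gave 3 to 5. With only the arrays compared, Traf1 was called (limma, adjusted p = 0.0363), and the calls of Nfkbie (adjusted p = 0.0520) and Nfkb2 (adjusted p = 0.0774) were lost. The challenge under rapamycin called 5, and 3 on slide 2 alone, 4 with slide as a fixed block and 0 under the study's rule, but 6 with quantile normalization, the deposited matrix, the percentile over detected probes, probes on all 12 arrays or slide as a random block (Nfkb1 gained in these 5) and 7 with normexp (Nfkbia then at -0.64, limma adjusted p = 0.0359), only the arrays compared or array weights; leaving out 1 array gave 3 to 7, with 3 without rapamycin replicate 3, BA+rapamycin replicate 1 or BA+rapamycin replicate 3. Rapamycin under challenge called 0, with 0 to 2 when 1 array was left out (2 without BA+DMSO replicate 2). Rapamycin alone called 0, and 1 (Nfkbia, limma) with array weights, and the interaction called 0 in each alternative. Some differences changed sign. For the challenge, Relb was -0.0095 with normexp and Nfkb1 was -0.25, from 0.52, as the median over probes. For Tnfrsf13c the challenge difference was 0.32 with normexp. For rapamycin under challenge, Tnfaip3 was 0.095 with the percentile over detected probes and -0.14 to 0.013 with 1 array left out. For rapamycin alone, Relb was 0.019 with normexp, 0.13 with slide as a fixed block or on slide 1 alone, 0.0043 with array weights, 0.034 as the median over probes and -0.11 to 0.051 with 1 array left out; Traf1 was 0.083 with slide as a fixed block or on slide 1 alone, 0.022 with array weights and -0.22 to 0.15 with 1 array left out. Nfkbie was 0.12 and Nfkb1 -0.022 within 1 title date, and Nfkbie was -0.19 to 0.070 with 1 array left out. The interaction of Nfkb2 was -0.011 with normexp, that of Birc3 -0.15 to 0.44 and that of Nfkb1 -0.042 to 0.76 with 1 array left out. DMSO and rapamycin titles share numbers that did not pair the samples (deviations of same-numbered arrays correlated at -0.24, 0.17 and -0.35); with the title number as a replicate block, rapamycin alone called 0 members with Nfkbie at 0.015, and the challenge under rapamycin called 6, with Tnfaip3 lost (-0.54, limma adjusted p = 0.0512). Over members, 172 of 184 alternatives kept direction and call for the challenge, 179 of 184 for rapamycin under challenge, 190 of 208 for rapamycin alone, 166 of 200 for the challenge under rapamycin and 172 of 176 for the interaction. For the named genes 370 of 521 did and 150 lost the call. These tallies count a member that stayed uncalled as keeping its call. They also include fits without an array of a group not compared, where the difference cannot change. They are thus no measure of how robust the results are. Scaling by detected probes moved the median of all genes for the challenge under rapamycin from -0.07 to 0.12. All BA+rapamycin arrays and 2 of 3 BA+DMSO arrays were dimmer than the DMSO arrays, and signal over background limits genes such as Tnf and Rel.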
